A study of Mus musculus with 14 samples.

Results

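The regions described here are stretches of the mouse genome outside annotated genes that lie close to where a gene ends. The study's annotation lists 1107 non-gene regions, and 223 of them overlapped no gene, had no gene start within 5 kb and had the end of at least 1 gene within 30 kb. RNA counts for these 223 regions were compared between macrophages depleted of Wdr82 and control macrophages. The macrophages were grown from the bone marrow of FVB/Hsd mice for 7 days, infected with retroviruses carrying a short hairpin and selected with puromycin. Both groups compared were untreated, and their ribosomal RNA-depleted total RNA was sequenced with strand-marked libraries. The control group had 2 libraries with a scrambled hairpin (scrambled 1 and scrambled 2). The knockdown group also had 2 libraries, 1 made with hairpin sh1137 against Wdr82 and 1 with hairpin sh830, so a difference between hairpins is part of the spread of that group. Nothing in the labels says that the libraries came from separate animals, and the p-values may then measure only technical spread. The other 10 of 14 samples, all of newly made RNA, were not analysed here.

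Transcription by RNA polymerase II normally continues past the end of a gene. The nascent RNA is cut at the polyadenylation signal, and the polymerase is then slowed and released some way downstream. When release is late, RNA from the sequence beyond the gene accumulates; such RNA is called readthrough or downstream-of-gene RNA. Wdr82 is a WD-repeat protein that binds the phosphorylated tail of RNA polymerase II. It belongs to the SET1 histone H3K4 methyltransferases, to a phosphatase complex with PNUTS (Ppp1r10), Tox4 and PP1, and to a termination complex with the zinc finger protein Zc3h4.

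The label of these regions was checked against the annotation. The nearest gene end belonged to 207 genes, of which 202 were protein coding, 191 had 1 region and 16 had 2. Of the 223 regions, 192 lay beyond the end of that gene, at the side where its transcription would leave it. The remaining 31 lay beyond the start of a short gene whose end also fell within 30 kb, and for 19 regions no gene end faced the region at all. On both sides a gene end faced 42 regions, so that reads there could have come from either neighbour. The regions carry no strand, and whether counting used the strand is not given in the sources used here. RNA of the upstream gene, of a downstream gene and of antisense transcripts can therefore not be told apart in a region's count. In their names the authors tied 174 regions to a gene end (TES) and 49 to a gene start (TSS), and 180 were named for the gene whose end is nearest.

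The regions were 1.0 to 65.5 kb long, with a median of 5.5 kb and 2006 kb in all, on 20 chromosomes. Their edges fell on a grid of 500 bases. The gap between gene end and region ran from 9 to 29960 bases with a median of 6.19 kb, and 70 regions began within 1 grid step of the gene end. The authors had called the regions with SICER, a program that finds enriched stretches of reads, in a comparison of hairpin with vector libraries, per the file's source field. Their direction of change is therefore not independent evidence.

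Wdr82 was lower in both knockdown libraries. It measured 98.0 and 148 CPM (counts per 1e6 exon counts, with library factors) in scrambled 1 and 2, against 25.2 for sh1137 and 40.4 for sh830. The log2 fold change was −1.92 ± 0.09 (SE; adjusted p = 0.0042, and 0.43 with the group term alone). The libraries held 34787556 to 43372731 exon counts, and introns took 40.4% and 44.2% of exon plus intron counts in scrambled 1 and sh1137 but 14.6% and 15.2% in scrambled 2 and sh830. The fit therefore had a term for these pairs of libraries besides the group term. This library term was chosen with results known and is not a batch given by the labels. Macrophage markers summed to 9530 to 15800 CPM. Fibroblast markers summed to 1.0 and 34.1 CPM in scrambled 1 and 2 and to 1.87 and 109 CPM with sh1137 and sh830. In the order scrambled 1, scrambled 2, sh1137 and sh830, megakaryocyte markers summed to 2.79, 1.03, 11 and 6.78 CPM, T cell markers to 2.32, 1.79, 5.45 and 4.65 CPM, B cell markers to 3.29, 5.66, 1.82 and 3.22 CPM, and neutrophil markers to 13.5, 7.63, 12.5 and 3.59 CPM. The megakaryocyte gene Ppbp (log2 fold change 3.47, adjusted p = 0.0093), the T cell gene Lck (1.86, adjusted p = 0.031) and the fibroblast gene Col1a1 (2.53, adjusted p = 0.008) rose. The B cell gene Cd79b fell (−1.59, adjusted p = 0.034). Of 10 macrophage markers 3 fell: Cd68 (−0.95, adjusted p = 0.0098), Lpl (−0.9, adjusted p = 0.024) and Spi1 (−0.46, adjusted p = 0.031). No other marker tested was called, and none of those named passed with the group term alone. Pax5 of B cells and Pf4 of megakaryocytes were at 0 in all 4 libraries. The part of these cell types in the results was not tested. In such bulk samples, fewer cells of a type and less RNA per cell cannot be told apart.

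RNA over the regions downstream of gene ends was higher in Wdr82 knockdown. The regions held 51078 counts in scrambled 1 and 40155 in scrambled 2, against 179996 with sh1137 and 100474 with sh830. As shares of all exon and region counts these were 0.127% and 0.0938%, against 0.505% and 0.23%, with 95% Wilson intervals of 0.1255 to 0.1277%, 0.09289 to 0.09473%, 0.5022 to 0.5069% and 0.2281 to 0.231%. These intervals cover counting error only. The groups did not overlap, but 2 against 2 libraries cannot give an exact two-sided permutation p below 0.33, and none is given. The region after Lyz2, the lysozyme gene of macrophages, alone held 22.4% and 43.5% of these counts in scrambled 1 and 2, against 5.04% for sh1137 and 36.5% for sh830. Without it the shares were 0.0983% and 0.053%, against 0.479% and 0.146%.

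The typical region was weakly covered. The median count per region was 75 in scrambled 1, 35 in scrambled 2, 184 for sh1137 and 88 for sh830. Per kb, the medians over the regions tested were 0.295 and 0.172 CPM in the scrambled libraries and 0.918 and 0.329 CPM with sh1137 and sh830. The library pairs with many and few intron reads thus also differed in the level of these regions: the median log2 ratio of scrambled 1 to scrambled 2 was 0.69. The sh830 library lay close to scrambled 1 at the median, and sh1137 lay above the other 3 libraries.

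Of the 223 regions, 213 passed the filter on low counts, 2 had no counts in any library, and the largest count among the 10 untested regions was 65. In 8 of the 213 both scrambled libraries were under the level the filter asks for, so that they entered only through the knockdown libraries, and 6 of these 8 were called. In a further 28 only a single scrambled library reached it, so that they too entered only because a knockdown library passed. These included the regions after Pdgfrb, Clec10a and Cx3cr1 and the nearer region after Arl4c. The regions named for the starts of Nlrp3, Xirp1 and C3ar1 were also among them. The p-values of all such regions give no support for a rise. Counts of calls here and below still include such regions, and the number called among the 28 is not given. In edgeR's quasi-likelihood test with the library term, adjusted over 14885 genes and regions with a threshold of 0.05, 97 regions rose and 0 fell (0 also before adjustment, at 0.05, and 0 in DESeq2). Among all genes and regions 8.83% were called higher, and among all 1068 non-gene regions tested 51.0% were, so that the share of 45.5% near gene ends was not above that of the authors' regions in general. The median log2 fold change was 1.38 (range −0.2 to 5.18), against 1.37 over all regions and −0.02 over genes, and 205 of 213 values were above 0. Without the filter, 114 of 221 regions rose and the median was 1.43.

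The calls depended on the library term. When the group was the sole term, 0 regions passed in edgeR (0.0% of all genes and regions), and 73 had an unadjusted p under 0.05, each higher. DESeq2 called 46 with that design, and 2.87% of all features. Both knockdown libraries were above both scrambled libraries in 116 of 213 regions, a pattern that 18.8% of all genes and regions showed. Among all non-gene regions tested, 684 of 1068 showed it, so that it was not particular to regions near gene ends. Of the 97 called regions 81 were of this kind, and in the other 16 the groups overlapped. With the group as sole term and 1 library left out, 24, 9, 16 and 68 regions were called without scrambled 1, scrambled 2, sh1137 and sh830, with median log2 fold changes of 2.09, 1.18, 0.49 and 1.95.

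Both hairpins moved the regions the same way, sh1137 by more. Against the scrambled library of like intron share, the median log2 ratio was 1.67 for sh1137 and 0.94 for sh830. The ratio was above 0 in 207 of 213 regions for sh1137, in 187 for sh830 and in 183 for both. It was larger for sh1137 in 168 regions and larger for sh830 in 45. With 1 library per hairpin this difference between hairpins was not tested. Wdr82 itself fell to similar fractions of its control level in both pairs.

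**Figure D1:**
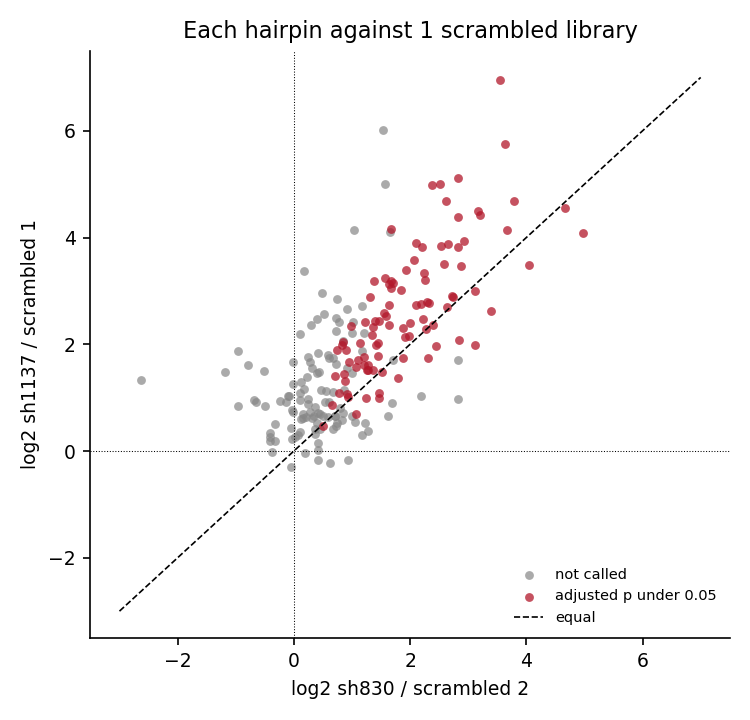
Log2 ratio of sh1137 to scrambled 1 (vertical axis) against that of sh830 to scrambled 2 (horizontal axis) for the 213 regions tested; each point is a region, red where the adjusted p was under 0.05, and the dashed line marks equal ratios. Both ratios are above 0 for 183 points, and 168 lie above the line.

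The regions were then described by where they lie, with classes chosen after values were seen and without a test between classes. Among regions beyond a gene end, those that began within 1 kb of it changed least. Of 75 tested, 21 rose, with a median log2 fold change of 0.71. From 1 to 5 kb beyond the end 10 of 27 rose (median 0.99), from 5 to 10 kb 19 of 35 (median 1.75), from 10 to 20 kb 19 of 27 (median 2.27), and from 20 to 30 kb 11 of 19 (median 2.26). The medians increased over the nearer classes, and the last 2 classes were alike.

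Both hairpins showed this order up to the class of 10 to 20 kb. The median ratio of sh1137 to scrambled 1 was 0.98, 1.31, 2.06, 2.37 and 2.47 from the nearest to the farthest class. The median ratio of sh830 to scrambled 2 was 0.51, 0.84, 1.17, 2.2 and 1.64. The farther regions started from a lower level, since the median over the mean of the scrambled libraries fell from 0.36 CPM per kb within 1 kb to 0.0975 from 10 to 20 kb. The knockdown medians were close to each other in all 5 classes, at 0.631, 0.763, 0.555, 0.669 and 0.562 CPM per kb.

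The regions were also split by their mean level over all 4 libraries, which includes the knockdown libraries. Such a split does not hold the control level fixed. In the lower part the scrambled medians were 0.191 CPM per kb within 10 kb and 0.0877 beyond, and in the upper part 0.445 and 0.275. The part of the starting level in the difference with distance was not tested. Among regions with a mean level of at most 0.45 CPM per kb, the median log2 fold change was 0.85 within 10 kb of the gene end and 2.18 beyond 10 kb. Among regions above that level the medians were 0.98 and 3.04, with 33 of 74 and 14 of 17 regions called higher. Over the 183 regions beyond a gene end, Spearman's rho was 0.5 between distance and log2 fold change, −0.08 between mean level and log2 fold change, −0.22 between distance and mean level, and 0.35 between length and log2 fold change. These points share the same 4 libraries, and near gene ends the reads of ordinary messenger RNA that extends past the annotated end were not separated. Longer regions were called more often: 38 of 57 regions over 10 kb long rose (median 1.64), against 59 of 156 shorter ones (median 1.23).

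**Figure D2:**
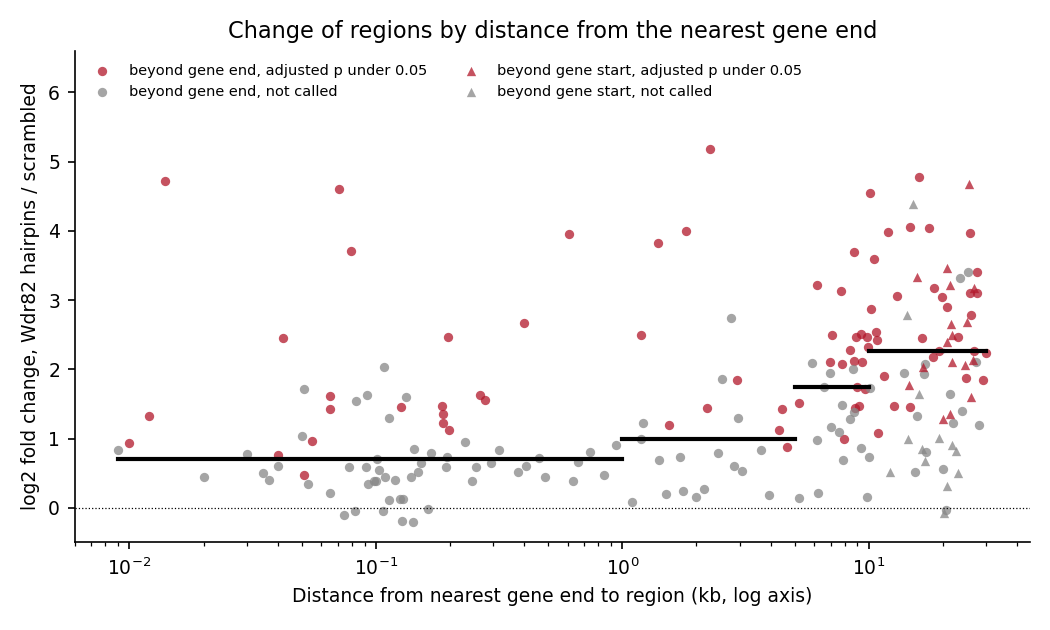
Log2 fold change of each tested region (vertical axis) against its distance from the nearest gene end in kb on a log axis; circles lie beyond a gene end, triangles beyond a gene start, red marks an adjusted p under 0.05, and black lines are the medians of the 5 distance classes. The lines step up from 0.71 within 1 kb to 2.27 from 10 to 20 kb, and no called region lies below 0.

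The neighbouring genes' orientation was described as well, although it moved together with distance: the median distance to the gene end was 0.802 kb with an end on both sides, 5.57 kb between an end and a start and 20.8 kb between 2 starts. The part of distance in the following differences was not tested. Regions with a gene end on both sides had a median log2 fold change of 1.16, with 22 of 70 called higher. Regions between a gene end and a gene start had a median of 1.46, with 60 of 116 called, and regions between 2 gene starts a median of 1.71, with 13 of 24 called. The 31 regions beyond a gene start, of which 30 were tested, had a median of 1.90 and 17 calls. Among the 18 tested regions that no gene end faced, 10 rose, with a median of 1.84. A later annotation (RefSeq on GRCm38, used only for gene order) lists further genes between the flanking genes for 129 of 215 regions that could be placed. Their median log2 fold change was 1.53, against 0.92 for the 86 with none.

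The change of a region was next set against that of the gene whose end is nearest. Of these genes 194 were tested; 38 rose and 16 fell, with a median log2 fold change of 0.18, where 770 of all 13817 genes tested rose and 1030 fell. Per kb, a region's level was a small part of its gene's exon level, with a median of 2.61% and 1.33% in scrambled 1 and 2, against 6.56% for sh1137 and 2.55% for sh830. In 4 of 202 regions the region was above its gene in all 4 libraries. The 97 regions that rose took in 31 of 43 tested regions whose nearest-end gene rose and 9 of 17 whose gene fell. They also took in 49 of 142 whose gene was not called and 8 of 11 whose gene was not tested.

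A test of the difference between region and gene, with each library entering once as region and once as gene counts, covered 202 regions. The region changed more than the exons of the gene in 83 and less in 0 (0 also before adjustment, at 0.05), with a median difference of 0.92 on the log2 scale. Among all 978 regions compared, 47.3% changed more than their gene. The fit has 1 residual degree of freedom and gave all regions a common spread, so that its single p-values are not printed, and without its term for the library pairs it called 0 regions (36 higher before adjustment). Without that term and without scrambled 1, scrambled 2, sh1137 or sh830 it called 0, 1, 0 and 12. Against the introns of the gene, which reflect RNA not yet spliced, 45 of 194 regions changed more, where 28.4% of all regions compared did. By library pair, 151 regions moved above their gene in both pairs and 10 below it in both. The median excess over the gene was 1.22 in the sh1137 pair and 0.73 in the sh830 pair. Across regions, Spearman's rho between the log2 fold changes of region and gene was 0.21 (n = 202).

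**Figure D3:**
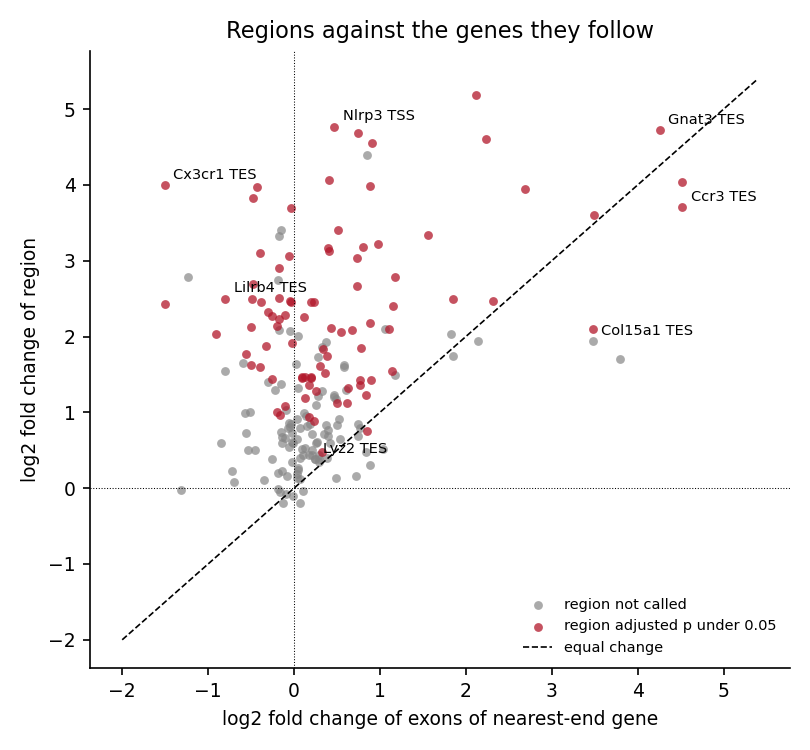
Log2 fold change of the region (vertical axis) against that of the exons of the gene whose end is nearest (horizontal axis) for 202 regions; red marks regions with an adjusted p under 0.05 and the dashed line equal change. Regions after Gnat3 lie near the line, the region after Ccr3 lies below it, and those after Cx3cr1 lie far above it although that gene fell.

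Most of the regions with the largest rises had low counts in control cells, which a choice by fold change favours. The 38 kb region after Arl4c and the 23 kb region after Tbc1d1, given below, had control counts above those of the median region. Per kb, however, they lay below the medians of 0.295 and 0.172 CPM in scrambled 1 and 2. They stood at 0.061 and 0.0585 CPM per kb after Arl4c and at 0.0976 and 0.0472 after Tbc1d1. The region between the end of 4933439C10Rik and the start of Nlrp3 (chr11:59340500-59348999, mm9) had 7 and 19 counts in control (scrambled 1 and 2), against 433 for sh1137 and 284 for sh830. Its log2 fold change was 4.77 ± 0.58 (SE; adjusted p = 0.016). The region entered the test only through the knockdown libraries, so its p gives no support. It begins 15.9 kb beyond that gene end and lies 6088 bases from the start of Nlrp3, which codes for an inflammasome sensor, and the authors named it for that start. Exons of 4933439C10Rik measured 7.76 and 3.9 CPM in the scrambled and 10.4 and 5.56 CPM in the knockdown libraries (adjusted p = 0.16).

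After Clec10a, a galactose-binding lectin of macrophages, the region chr11:69994500-70004999 had 38 and 4 counts in control (scrambled 1 and 2), against 609 for sh1137 and 204 for sh830. Its log2 fold change was 4.55 ± 0.38 (adjusted p = 0.0086), and that of Clec10a exons was 0.91 ± 0.19. The scrambled libraries differed from each other here. That both knockdown libraries lay above both was a condition for naming the region among the largest rises. It entered the test only through the knockdown libraries, so its p gives no support. After Cd200r3, a receptor of the CD200 receptor family, the region chr16:44993500-45010999 went from 48 and 22 counts to 955 and 241, a log2 fold change of 3.98 ± 0.34 (adjusted p = 0.0092). This gene itself was scarce, at 0.336 to 2.27 CPM, and per kb the region exceeded its exons in both knockdown libraries, at 344% and 263%. Introns of Cd200r3 rose by 2.32 (adjusted p = 0.0078). Against these introns the difference of the region was 1.53 and did not pass.

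The region after Pdgfrb, a growth factor receptor of mesenchymal cells, had the largest fold change, 5.18 ± 0.98 (adjusted p = 0.032). It had 0 and 11 counts in control, against 229 for sh1137 and 164 for sh830. The region entered the test only through the knockdown libraries, so its p gives no support. The fitted value depends on how the count of 0 is treated. Pdgfrb exons rose as well, from 8.43 and 9.87 CPM to 42.5 and 37.0 CPM. Introns of Pdgfrb rose by 2.81, and the difference of the region from them, 2.54, did not pass. The fibroblast markers stood at 1.87 CPM in the library with the higher count of this region and at 109 CPM in the other knockdown library. The part of fibroblasts in this rise was not tested. On its other side the region lies 13227 bases from the start of Csf1r, a macrophage marker gene.

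After Pfpl, a gene for a perforin-like protein, the region chr19:12508000-12521999 had 220 and 286 counts in control against 4445 for sh1137 and 2844 for sh830. It rose by a log2 fold change of 3.83 ± 0.33 (adjusted p = 0.0093). Pfpl exons stayed between 0.235 and 0.454 CPM in all 4 libraries, below the region per kb in each of them. No change of Pfpl was called (adjusted p = 0.56).

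Regions far beyond their genes also rose. The region chr1:90517000-90554999, 38 kb long, begins 14.7 kb after Arl4c, an ARF-like small GTPase. It had 97 and 86 counts in control against 3045 for sh1137 and 681 for sh830 (log2 fold change 4.06 ± 0.56, adjusted p = 0.019). A nearer region of the same gene end, 7.7 kb beyond it, went from 14 and 3 counts to 104 and 34 (3.13 ± 0.46, adjusted p = 0.021). That nearer region entered the test only through the knockdown libraries, so its p gives no support. Arl4c exons rose by 0.41 ± 0.08, far less than either region.

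The region chr5:64768500-64791499 begins 25.8 kb after Tbc1d1, a Rab GTPase-activating protein of glucose transport. It had 94 and 42 counts in control against 1512 for sh1137 and 608 for sh830, a log2 fold change of 3.97 ± 0.19 (adjusted p = 0.0043). For Tbc1d1 exons the log2 fold change was −0.43 ± 0.1 (adjusted p = 0.052). Region and gene thus had opposite signs in this fit, and the difference was 4.72 in the sh1137 pair and 3.94 in the sh830 pair. The longest of the 223 regions, which spans 65.5 kb after Lpp and was chosen here after its values were seen, went from 3833 and 938 counts to 37702 and 7570 (3.18 ± 0.17, adjusted p = 0.0047).

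**Figure D4:**
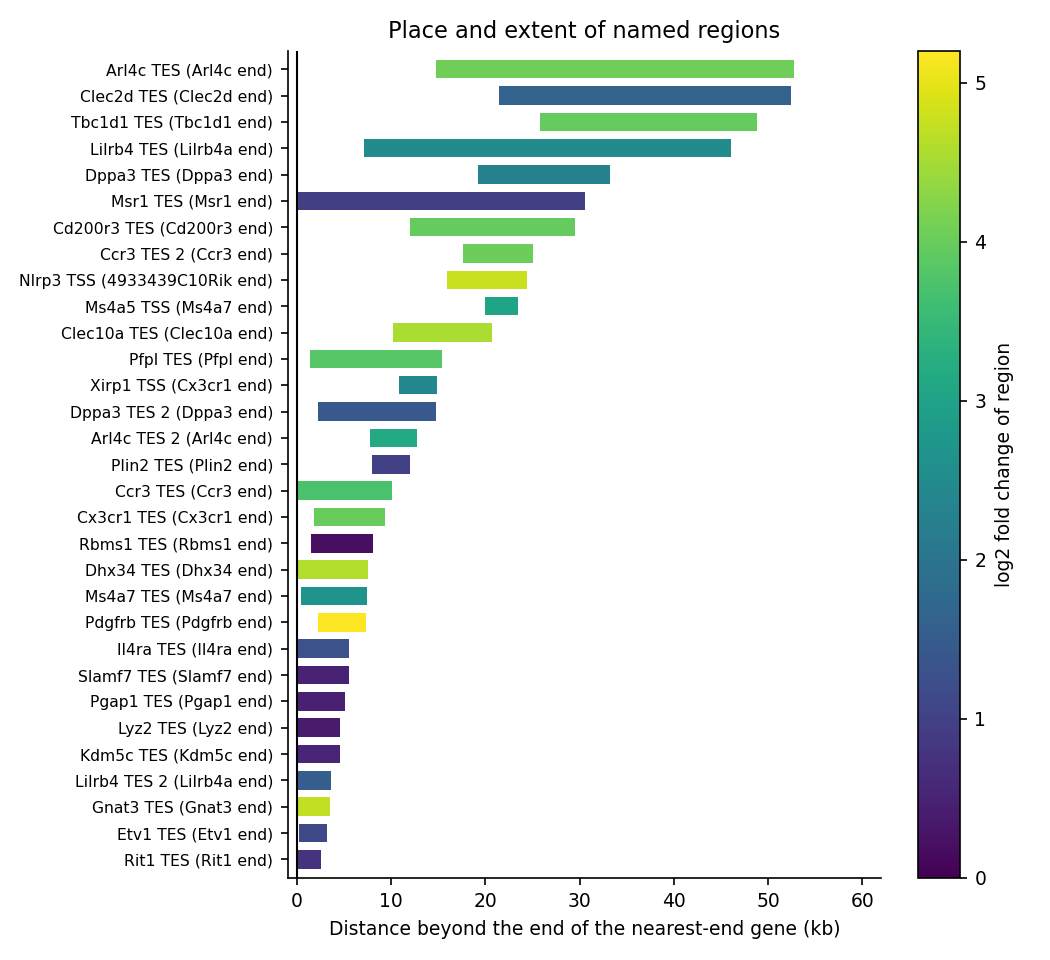
Place and length of the named regions that lie beyond a gene end, in kb from the end of the nearest-end gene, coloured by the log2 fold change of the region. The regions after Lyz2, Kdm5c and Rit1 start at the gene end and are dark, and the region after Arl4c reaches 52.7 kb.

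At some gene ends the region and the gene rose together. Gnat3, which codes for the taste G protein alpha gustducin, measured 0.478 and 1.01 CPM in control, against 12.8 for sh1137 and 14.8 for sh830. The region that begins 14 bases after its end had 23 and 25 counts in control against 526 and 752 in knockdown. The log2 fold changes were 4.26 ± 0.3 for the gene (adjusted p = 0.0073) and 4.72 ± 0.22 for the region (adjusted p = 0.0043), and their difference was 0.44 ± 0.56. Per kb the region stood at 38.6%, 21.5%, 36.8% and 40.1% of the gene in scrambled 1, scrambled 2, sh1137 and sh830.

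The eotaxin receptor gene Ccr3 had the same pattern. Its exons went from 0.501 and 0.724 CPM to 17.9 and 11.1 CPM (4.52 ± 0.36, adjusted p = 0.0085). The region that follows within 79 bases had 30 and 28 counts in control against 595 for sh1137 and 230 for sh830 (3.71 ± 0.44, adjusted p = 0.015). A farther region, 17.6 kb beyond the end, had 11, 12, 371 and 85 counts (4.04 ± 0.67, adjusted p = 0.025). Against the gene their differences were −0.86 ± 0.59 and −0.59 ± 0.7, so that a change larger than the gene's was not seen at this end.

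Dhx34, an RNA helicase of nonsense-mediated decay, rose from 29.1 and 28.8 CPM to 136 and 137 CPM (2.24 ± 0.09, adjusted p = 0.0042). The region 71 bases after it had 8 and 6 counts in control against 229 and 119 in knockdown (4.61 ± 0.42, adjusted p = 0.0093). Both control libraries were under the level the filter asks for, so the region was tested only because it was high in knockdown, and its p gives no support. Per kb the region moved from 0.395% and 0.324% of the gene to 2.7% and 1.22%. Region and gene were both higher in knockdown, the region by more in each library pair, by 2.45 with sh1137 and 1.54 with sh830.

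Other regions were higher in knockdown beside genes that were lower. Cx3cr1, the fractalkine receptor gene of monocytes and macrophages, fell from 256 and 247 CPM to 61.4 and 127 CPM (−1.5 ± 0.27, adjusted p = 0.029). The region chr9:119948500-119955999, 1.8 kb beyond its end, had 13 and 4 counts in control against 149 and 105 in knockdown (4.00 ± 0.44, adjusted p = 0.014). The next region, 10.8 kb beyond the same end and named for the start of Xirp1, an actin-binding muscle gene, had 24, 8, 111 and 51 counts (2.43 ± 0.4, adjusted p = 0.025). Both regions entered the test only through the knockdown libraries, so their p-values give no support. Per kb, the nearer region went from 0.0603% and 0.0208% of the gene to 3.23% and 0.962%, the largest difference from a gene among the regions tested.

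Exons of the inhibitory receptor gene Lilrb4a changed by −0.80 ± 0.2 on the log2 scale, which did not pass (adjusted p = 0.055). A 39 kb region that begins 7.1 kb beyond its end had 1060 and 263 counts in control against 6377 for sh1137 and 1330 for sh830 (2.50 ± 0.16, adjusted p = 0.0063). The groups were nearly in contact here in CPM, at 25.3 and 6.8 against 171 and 31.2. The region next to the gene end had 134, 95, 577 and 175 counts (1.54 ± 0.41, adjusted p = 0.065), and a gene end also faces both from the other side.

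C3ar1, the receptor of complement fragment C3a, fell from 941 and 885 CPM to 340 and 448 CPM (−1.23 ± 0.14, adjusted p = 0.014). The region named for it lies beyond its start and had 7 and 14 counts in control against 142 for sh1137 and 34 for sh830 (2.79 ± 0.87, adjusted p = 0.089). It did not pass the test, and most of its difference lay in the sh1137 library. Of the 9 regions that rose beside a gene that fell, the one after Plekho1, chosen after its values were seen, had 222 and 179 counts in control against 687 and 540 in knockdown (1.63 ± 0.18, adjusted p = 0.014). Plekho1, an adaptor protein gene, changed by −0.50 ± 0.1 (adjusted p = 0.036).

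The 8 regions with the highest levels per kb in control cells lay mostly close behind genes and had smaller fold changes, from 0.20 to 1.12 on the log2 scale. The region after Lyz2 (chr10:116710000-116714499) had 11422 and 17481 counts in control (scrambled 1 and 2), against 9077 for sh1137 and 36649 for sh830. The groups overlapped, and its log2 fold change of 0.38 ± 0.26 did not pass the test (adjusted p = 0.35). Per kb it held 1.8% to 2.56% of the Lyz2 exon level in every library.

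After Pgap1, which codes for an enzyme of GPI anchor remodelling, the region had 1020 and 1088 counts in control against 1249 and 1702 in knockdown (0.48 ± 0.1, adjusted p = 0.038). Per kb this was 60.6% to 72.2% of the exon level of Pgap1. The region after Etv1, an ETS transcription factor gene, rose from 236 and 258 counts to 421 and 673 (1.12 ± 0.18, adjusted p = 0.023). Regions after Kdm5c, a histone H3K4 demethylase gene, Rit1, a Ras-like GTPase gene, and Rbms1, an RNA-binding protein gene, had log2 fold changes of 0.54, 0.77 and 0.20 and did not pass the test.

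Of these highly covered regions, 2 rose by close to 1 on the log2 scale with small spread. The 30.5 kb region after Msr1, a scavenger receptor gene of macrophages, had 3553 and 3689 counts in control against 6370 and 7787 in knockdown (0.97 ± 0.08, adjusted p = 0.0091). Msr1 exons measured 1340, 1320, 1080 and 1320 CPM and did not pass the test (−0.16 ± 0.11, adjusted p = 0.37). The region 8.0 kb after Plin2, a lipid droplet coat protein gene, went from 370 and 365 counts to 691 and 763 (1.00 ± 0.14, adjusted p = 0.021), and Plin2 exons had −0.20 ± 0.1 (adjusted p = 0.23). The difference from the gene was 1.13 ± 0.86 for Msr1 and 1.19 ± 0.69 for Plin2 and did not pass the test for either. The ratios were similar in both library pairs, 1.01 and 0.94 after Msr1 and 1.06 and 0.92 after Plin2.

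**Figure D5:**
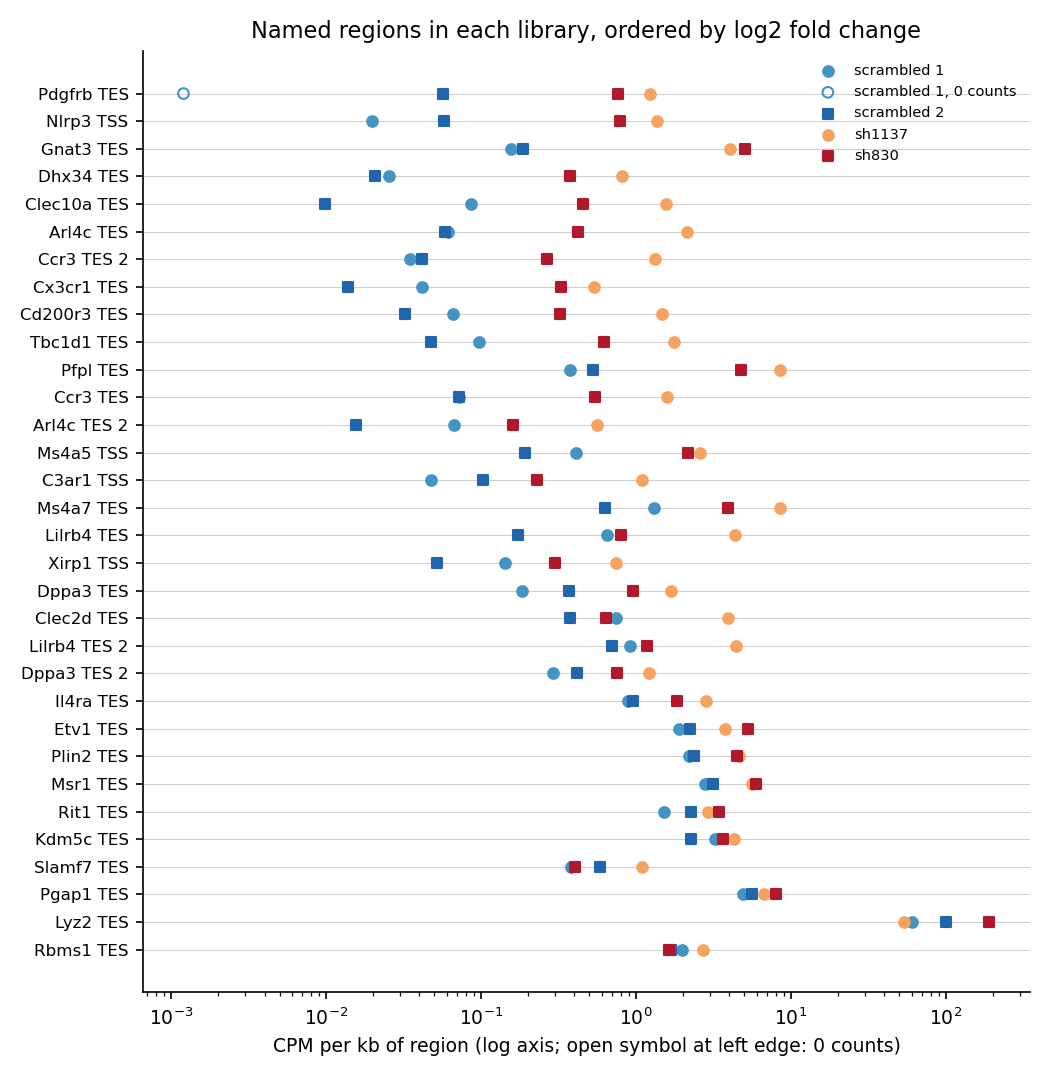
Level of each named region in CPM per kb of region on a log axis, with 1 symbol per library: blue for the scrambled libraries, orange for sh1137 and red for sh830; an open circle at the left edge marks 0 counts. In the upper rows both knockdown symbols stand right of both scrambled ones, and in the rows of Clec2d, Slamf7, Lyz2 and Rbms1 the groups overlap.

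Ends of genes of immune families (chemokines and their receptors, interleukins and their receptors, Fc receptors, C-type lectins, integrins, MS4A and SLAM proteins and the like, taken by gene symbol) were nearest to 21 regions. Of 19 tested, 11 rose and 0 fell, with a median log2 fold change of 2.06, and 9 of 18 compared changed more than their gene. Both shares were near those of all non-gene regions, 51.0% and 47.3%. Their median distance from the gene end was 10.2 kb, farther than over all the regions.

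Ms4a7, a membrane protein gene of macrophages, rose from 66.7 and 126 CPM to 129 and 180 CPM (0.73 ± 0.13, adjusted p = 0.028). The region 399 bases beyond its end had 381 and 172 counts in control against 2207 and 1179 in knockdown (2.67 ± 0.11, adjusted p = 0.0042). A farther region, 19.9 kb beyond the end and named for the start of Ms4a5, had 60, 26, 340 and 320 counts (3.04 ± 0.31, adjusted p = 0.012). Both library pairs gave nearly the same ratio for the nearer region, 2.69 and 2.63.

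Il4ra, the interleukin-4 receptor alpha chain gene, rose by 0.63 ± 0.13 (adjusted p = 0.04), and the region 12 bases beyond it went from 204 and 202 counts to 582 and 432 (1.32 ± 0.24, adjusted p = 0.03). After Clec2d, a lectin gene whose product is a ligand of natural killer cell receptors, a 31 kb region had 957 and 448 counts in control against 4560 for sh1137 and 850 for sh830. It did not pass the test (1.64 ± 0.39, adjusted p = 0.051), and the groups overlapped. The region after Slamf7, a SLAM family receptor gene, had 88, 125, 225 and 95 counts and did not pass either (0.50 ± 0.54, adjusted p = 0.55), with opposite signs in the library pairs, 1.5 and −0.52.

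At 12 gene ends 2 tested regions lay in a row beyond the same gene, and such pairs are not independent. The farther region had the larger log2 fold change at 9 of these ends and the nearer at 3, with medians of 2.46 and 2.09. Both regions were called at 6 ends, 1 of them at 2 ends and none at 4. Arl4c was an example of the farther region rising more, and Cx3cr1 of the nearer. Beyond Dppa3, a chromatin factor gene of the early embryo, the nearer region had 153, 202, 566 and 399 counts (1.44 ± 0.33, adjusted p = 0.047) and the farther 107, 199, 880 and 572 (2.27 ± 0.45, adjusted p = 0.036). Dppa3 exons lay between 1.41 and 2.25 CPM, while its introns rose by 1.56 (adjusted p = 0.022). Against these introns the difference was −0.12 for the nearer and 0.72 for the farther region, and neither passed.

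The regions nearest to the bounds of the choice had the following log2 fold changes. Inside the limit of 30 kb to a gene end, the region named for the start of Tm6sf1 changed by 1.85 and that after Fam46c by 2.23. Outside it, the region after Rps6ka1 changed by 1.38 and that at Serpinb1c by −0.32. At the limit of 5 kb to a gene start, the regions after Afmid (1.55) and Tifab (1.61) were inside, and those at 1700011L22Rik (1.44) and Hmha1 (1.27) outside.

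Other classes of the authors' regions gave a similar picture. Regions within 5 kb of a gene start were called higher in 101 of 198 cases (median log2 fold change 1.5), regions overlapping a gene in 199 of 428 (median 1.08), and regions farther than 30 kb from any gene end in 148 of 229 (median 2.09). Downstream of gene ends 97 of 213 regions were called (45.5%), a share below the 51.0%, 46.5% and 64.6% of these classes in turn. Their median of 1.38 lay within the range of the other medians, and the difference between classes was not tested.

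Factors that cut and terminate transcripts were looked at as well. Of 40 genes for 3′ end processing and termination, 2 rose and 4 fell, Wdr82 included, with a median log2 fold change of −0.12. Of all 13817 genes tested 770 rose and 1030 fell, so that the shares among these factors were not far from those of genes in general. Ppp1r10, the PNUTS subunit that binds Wdr82, rose from 70.6 and 76.1 CPM to 270 and 255 CPM (1.84 ± 0.09, adjusted p = 0.0043). Zc3h4 rose by 0.75 ± 0.15 (adjusted p = 0.034). Besides Wdr82, the fallen genes were Cpsf3, the endonuclease that cuts at the polyadenylation site, with −0.56 ± 0.09 (adjusted p = 0.023), Cstf2 with −0.54 ± 0.1 (adjusted p = 0.033) and Papola, a poly(A) polymerase gene, with −0.39 ± 0.08 (adjusted p = 0.039). None of these 6 was called with the group term alone.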

How the data were processed

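For each of 4 untreated total RNA libraries, the authors deposited unnormalized read counts over gene exons, gene introns and non-gene regions, with an mm9 annotation. That these are counts follows from whole-number values with unequal totals. Tools in the submitters' processing notes are SICER, TopHat 1.3.1, and Cufflinks with Cuffdiff, both 2.1.1; the counting tool and its strand setting are not given in the sources used here. No region sequence is shown, since an mm9 genome was not used here.

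Genes (exon counts) and regions entered 1 edgeR 4.0.16 fit (R 4.3.3; TMM factors from genes, filterByExpr, quasi-likelihood F-test, Benjamini-Hochberg over all 14885 features), with a group term and the library term, leaving 1 residual degree of freedom. The region-against-gene fit had the same residual degree of freedom. Standard errors are the fold change divided by the root of F. Ratios by library pair used a prior count of 2. The fits were tested on simulated data. Alternatives were the group term alone, a crossed library term, DESeq2 1.42.0, other size factors, no filter, and each library left out.

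Members and lists were chosen with earlier results of these data known. Named regions were the 10 largest called rises with groups apart and at least 10 scrambled counts, the 8 highest scrambled levels per kb, the 6 largest differences above the gene, regions of 4 gene ends with most regions (ties by total count), the 8 highest immune neighbours and the regions at each bound; no fall or difference below the gene was called.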

Additional observations from a re-analysis of the deposited data

How the results depend on the processing

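With all 4 libraries, 0 regions were called lower in any setting tried. The authors had called the regions in a comparison of hairpin with vector libraries, so this is not independent evidence of direction. Some named regions changed sign with a library left out, as given below. The number called higher, 97 with the library term in edgeR, was 102 with DESeq2 and the library term, 90 with RLE factors, 103 with TMM factors from genes and regions and 114 without the filter. It was 0 with the group term alone, 17 with a crossed library term and 46 in DESeq2 with the group term alone. Leaving out each library in turn, with the group term alone, gave 9 to 68 calls (9 without scrambled 2 and 16 without sh1137) and medians of 0.49 to 2.09, the lowest without sh1137. The median was 0.95 for gene ends within 10 kb and 1.32 for regions beyond a gene end.

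The count of regions that changed more than their gene, 83, was 0 without the term for library pairs, 45 against introns and 0 to 12 with a library left out. Values changed sign for some named regions. Over the gene, Gnat3 TES ran from −0.01 (without scrambled 2) to 0.83 with a library left out, Ccr3 TES 2 from −1.4 to 0.23 (without sh830) and Lyz2 TES from −0.11 (without sh830) to 0.40. Against introns, Ccr3 TES 2 had 0.48, Ccr3 TES 0.20 and Dppa3 TES 2 −0.12. The change itself ran from −0.58 (without sh830) to 1.26 for Lyz2 TES, from −0.17 (without sh1137) to 0.56 for Rbms1 TES and from −0.24 (without sh1137) to 1.18 for Slamf7 TES. The cause was not tested.

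No paired analysis was possible because the labels give no pairing of knockdown with scrambled libraries. The library term sets scrambled 1 with sh1137 and scrambled 2 with sh830 from a measured split. Low counts in the scrambled libraries limit the precision of the largest fold changes.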
